A study of Mus musculus with 4 samples.

Results

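Gene expression was compared between interscapular brown adipose tissue (iBAT) and epididymal white adipose tissue (eWAT) of mice lacking ASK1, to describe which differences between brown and white fat stand without this kinase. The members are the 2 arrays labelled ASK1-deficient among the 4 arrays of the study, and the other 2 arrays hold the same depots of wild-type (WT) mice. ASK1, encoded by Map3k5, is a stress-activated kinase of the mitogen-activated protein kinase cascades, and the knockout was whole-body. Each array was hybridised with 1 Cy3-labelled pool of RNA from 3 male mice aged 10 weeks under normal conditions. By the methods of the study the mice were of the C57BL/6J strain, and WT and ASK1-deficient mice were bred separately, so genotype and breeding line cannot be told apart. Each depot of a genotype therefore has 1 measurement and no replicate. Values are signals relative to the 75th percentile of the array, called relative signals here, and depot differences are log2 ratios of iBAT over eWAT, so that positive values mean higher in iBAT.

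Brown adipocytes burn fatty acids in abundant mitochondria and release the energy as heat through Ucp1, which lets protons back across the inner membrane without making ATP. Noradrenaline from sympathetic nerves drives this through β-adrenergic receptors, cAMP and p38, a kinase cascade in which ASK1 can act. White adipocytes store triglyceride and secrete hormones such as leptin. Visceral white fat such as eWAT is also covered by mesothelium and holds many macrophages.

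Of 55679 probes, 33834 were well above background on at least 1 of the ASK1-deficient arrays, 29182 of them on both, 1346 in iBAT alone and 3306 in eWAT alone. These probes gave 14513 genes measured in both depots. At least a 2-fold difference was seen for 1790 genes higher in iBAT (12.3% of measured genes) and 1832 higher in eWAT (12.6%), together 25.0%. The genes higher in iBAT were 49.4% of those apart, and 10.7% where the arrays were not scaled. At 4-fold there were 458 and 595 genes, and the median depot difference of all measured genes was 0.03. Of the 22066 genes on the array, a further 489 were above background in iBAT only and 1058 in eWAT only. These have bounds in place of ratios, and counts of such genes in the lists stand beside these totals. In the WT mice 16.4% of 14236 measured genes were at least 2-fold higher in iBAT and 13.4% in eWAT, together 29.8%. In a limma fit of depot and genotype over the 4 arrays, which has 1 residual degree of freedom, 4334 of 14057 genes were called higher in iBAT (30.8%) and 3465 in eWAT (24.6%) at an adjusted p under 0.05. That fit is the one test of a depot difference the design allows, and it contains the arrays described here together with those of WT mice. The iBAT arrays lay in 1 row of the slide and the eWAT arrays in the other, so depot and row cannot be told apart. In bulk tissue, fewer cells of a type and less RNA per cell cannot be told apart either.

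**Figure D1:**
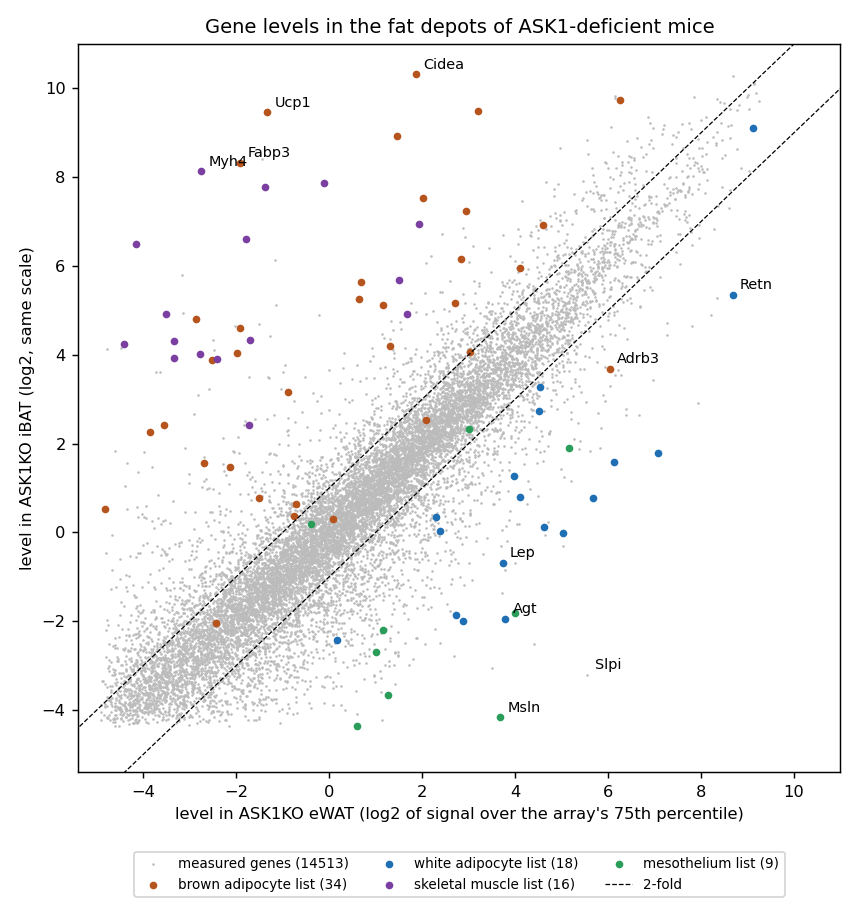
Level of each of 14513 genes in ASK1-deficient eWAT (x axis) and iBAT (y axis), both as log2 of the signal over the 75th percentile of the array. Dashed lines mark a 2-fold difference, and coloured points are members of 4 gene lists. Most brown adipocyte genes and all 16 skeletal muscle genes lie above the upper 2-fold line. White adipocyte and mesothelium genes lie mostly below the lower line, with Adrb3 the one brown-list gene there.

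The knockout itself was seen in 1 of the 2 Map3k5 probes. The probe on chr10:19860474-19861330 (mm9) gave processed signals of 117 in ASK1-deficient iBAT and 194 in ASK1-deficient eWAT, against 448 and 701 in the WT depots. The probe on chr10:19862193-19862252 gave 1082 and 836 in the ASK1-deficient depots and 1081 and 1264 in WT. The first probe was thus dimmer in both ASK1-deficient depots and the second in eWAT only. No mm9 annotation was used, so which exons they read is not given here.

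Brown adipocyte genes were higher in iBAT. Of 40 listed genes, 34 were measured in both ASK1-deficient depots, 30 of them at least 2-fold higher in iBAT, where 12.3% of all measured genes were, and 1 lower. Another 4 were above background in iBAT only, and Fgf21 and Bmp8b, which encode secreted factors, were not well above background in either depot. The median was 4.16, against 4.25 for the same genes in WT mice. limma called 32 of the 34 higher in iBAT and 1 lower, against 30.8% and 24.6% of all genes tested.

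Ucp1, the uncoupling protein, had a relative signal of 708.8 in ASK1-deficient iBAT and 0.397 in the eWAT of the same genotype, and the log2 ratio was 10.80. In WT mice its relative signals were 965 and 9.81, a log2 ratio of 6.62. The depots thus stood apart in both genotypes, and the wider ratio without ASK1 came mostly from the low signal in ASK1-deficient eWAT. Over both genotypes the limma estimate was 8.71 ± 0.85 (SE, 4 arrays, adjusted p = 0.000352). Cidea, a lipid droplet protein selective for brown adipocytes, showed the same order, with 1276 in iBAT and 3.66 in eWAT without ASK1 (log2 ratio 8.45) and 1446 and 17.1 in WT (6.40). Fabp3, a fatty acid-binding protein of oxidative tissues, read 321 and 0.266 without ASK1 (10.24) and 347 and 2.15 in WT (7.34). For each of these 3 genes the iBAT signals of the genotypes lay within 1.5-fold of each other. Whether the depot ratio differs between genotypes was not tested, since each condition has 1 array.

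Dio2, the deiodinase that makes active thyroid hormone inside brown adipocytes, went the other way. Its relative signal was 5.33 in ASK1-deficient iBAT against 27.6 in WT iBAT, with 0.0852 and 0.173 in the eWAT of each. The log2 ratio was therefore 5.97 without ASK1 and 7.32 in WT. Elovl3, an elongase that rises in stimulated brown fat, was above background in ASK1-deficient iBAT only, at 0.208 (at least 6.38-fold higher than in eWAT), while WT iBAT gave 3.59 and WT eWAT 0.0544. Both genes were dimmer in ASK1-deficient than in WT iBAT and still brighter in iBAT than in eWAT.

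Several members of the brown list are transcriptional regulators. Ppara, the receptor that switches on fatty acid oxidation, read 38.1 in iBAT and 1.56 in eWAT without ASK1, and its log2 ratio was 4.61 against 4.60 in WT. Ppargc1a and Ppargc1b, coactivators of mitochondrial biogenesis, had log2 ratios of 3.61 and 4.06 (WT 3.76 and 3.94). Prdm16, a determinant of brown identity, stood at 1.70 and 0.351 (2.28, WT 2.64), and Esrrg, an orphan receptor of oxidative tissues, at 1.44 and 0.0350 (5.37, WT 5.04). Ebf2, which marks brown precursors, differed little, with a log2 ratio of 0.44 (WT 0.60, limma 0.52 ± 0.149 SE, adjusted p = 0.0247). The regulators thus ranged from Ebf2, below 2-fold, to Esrrg.

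Lhx8 and Zic1 are patterning factors used as markers of classical brown fat. Lhx8 was above background in iBAT only, at a relative signal of 0.744, at least 22.8-fold higher than in eWAT. The 2 probes of Zic1 disagreed. That on chr9:91255425-91255484 (mm9) read 1.80 in iBAT and was not well above background in eWAT, at least 55.1-fold apart, whereas that on chr9:91257301-91257360 read 0.244 and 0.185, a log2 ratio of 0.40. The gene value of Zic1 rests on the second probe alone, since the first has only a bound.

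Other members of the brown list act in fatty acid use and respiration. Slc27a2, an acyl-CoA synthetase, was above background in iBAT only, at 37.1, at least 1135-fold higher than in eWAT. In WT mice it was measured in both depots, at 35.5 and 0.400. Cpt1b, which carries long-chain fatty acids into mitochondria, read 28.1 and 0.137 (log2 ratio 7.69), and Cox7a1, a subunit of cytochrome c oxidase, 484 and 2.73 (7.47). The log2 ratio was 6.54 for Acot11, an acyl-CoA thioesterase, 6.40 for Pank1, which starts coenzyme A synthesis, and 6.12 for the proton channel Otop1. Adrb3 was the exception. This β3-adrenergic receptor, typical of adipocytes, read 12.9 in iBAT and 65.7 in eWAT without ASK1 (log2 ratio -2.35) and 17.7 and 62.8 in WT (-1.83), and limma called it higher in eWAT (adjusted p = 0.000214).

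Skeletal muscle genes moved with this comparison. All 16 measured genes of the muscle list were at least 2-fold higher in ASK1-deficient iBAT, against 12.3% of all measured genes, and the other 4 were above background there only. The median was 7.47 (6.85 for the same genes in WT). Their summed relative signal was 1306 in iBAT and 13.0 in eWAT, against 1265 and 17.5 in WT. Myh4, a fast myosin heavy chain, gave the largest ratio of any gene measured in both depots, 281 against 0.148 (log2 ratio 10.89), and Tnnt3, Myh8, Tnni2, Tcap, Ttn, Mb, Myl2 and Myh7 were also among the 12 widest. Among genes above background in iBAT only, the muscle genes Myom2 (at least 414-fold) and Myoz1 (at least 398-fold) and the predicted gene Gm9961 (at least 248-fold) had some of the largest bounds. Fabp3, Cpt1b, Cox7a1, Cox8b and Cox6a2 are expressed in muscle fibres as well as in brown adipocytes, so the part of muscle RNA in their ratios was not tested. The muscle-shared genes left out of lists here were these, Ckmt2 and the muscle list. Without them the brown list had 30 measured members and a median of 3.78. Whether the ratios of the members kept hold a part of muscle RNA was not tested. Ucp1, Cidea, Dio2 and Ppara are among those 30.

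White adipocyte genes formed the opposite set. Of 26 listed genes 18 were measured, and 17 of them were at least 2-fold higher in ASK1-deficient eWAT, where 12.6% of all measured genes were. The median was -3.87, against -4.30 for the same genes in WT, and limma called 17 of the 18 higher in eWAT and none higher in iBAT, against 24.6% and 30.8% of all genes tested. Lep, which encodes leptin, read 0.621 in iBAT and 13.3 in eWAT without ASK1 (log2 ratio -4.42) and 0.457 and 10.7 in WT (-4.56). Agt, the angiotensin precursor, read 0.260 and 13.8 (-5.73), and Retn, which encodes resistin, 40.9 and 411 (-3.33). Sncg, a synuclein, read 3.46 and 135 (-5.29), and Slc7a10, an amino acid transporter of white adipocytes, 0.982 and 32.7 (-5.06). In each of these 5 genes both eWAT signals exceeded both iBAT signals. Another 5, Hoxc9, Hoxc8, Igfbp2 and Tcf21 among them, were above background in eWAT only, with Hoxc9 at least 85.5-fold higher there. Car3, a carbonic anhydrase abundant in fat, stood at 552 in each depot (log2 ratio 0.00, limma adjusted p = 0.89).

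**Figure D2:**
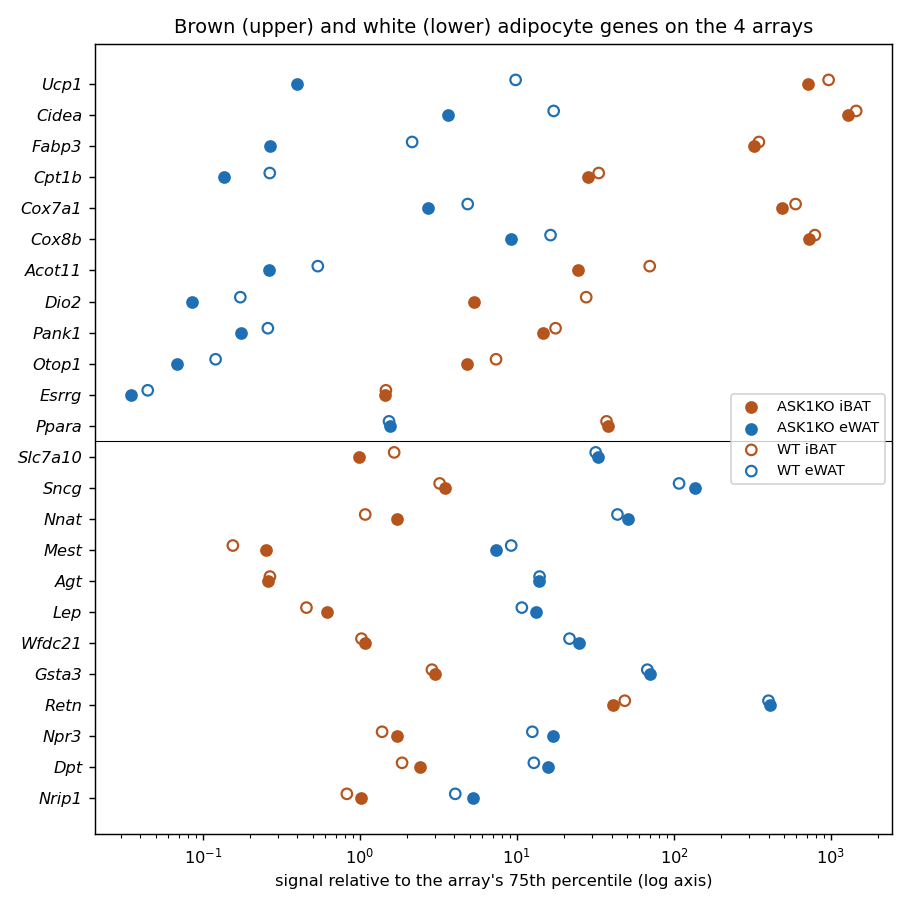
Relative signal (log axis) of 12 brown adipocyte genes (upper) and 12 white adipocyte genes (lower) on the 4 arrays, 1 point for each array, filled for ASK1-deficient and open for WT. The iBAT points lie to the right of the eWAT points for each brown gene and to the left for each white gene in both genotypes. For Ucp1, Cidea and Fabp3 the ASK1-deficient eWAT point lies far left of the WT one.

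Genes of adipocytes in any depot showed no common direction. Of 24 measured, 5 were at least 2-fold higher in ASK1-deficient iBAT and 5 in eWAT, against 12.3% and 12.6% of all measured genes, and the median was -0.01. Fabp4, the adipocyte fatty acid-binding protein, read 947 in iBAT and 582 in eWAT (log2 ratio 0.70), and Adipoq, which encodes adiponectin, 296 and 464 (-0.65). Pparg, the master regulator of adipocyte differentiation, had a log2 ratio of 0.41. Cebpb, a factor induced by cAMP, was the highest of the list at 69.6 and 16.1 (2.11). Plin4, a lipid droplet coat protein, and Cav1, a protein of caveolae, were lower in iBAT at -1.30 and -1.80. The beige adipocyte list of 10 measured genes had a median of -0.17, which was 0.14 without the filter on dim probes and 0.03 with another background correction (normexp). Only Cited1 among them was 2-fold higher in iBAT (0.329 against 0.0916, log2 ratio 1.85), while Ear2 (-4.69) and Klhl13 (-1.96) were higher in eWAT.

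The mitochondrial machinery was higher in iBAT in nearly every subunit measured. All 36 complex I genes were at least 2-fold higher in ASK1-deficient iBAT, against 12.3% of all measured genes, with log2 ratios between 1.14 and 2.43 and a median of 1.77. So were all 14 of complexes II and III (median 2.01), 13 of 14 of complex IV (2.05) and 12 of 16 of ATP synthase (1.56). In WT the medians were 2.24, 2.47, 2.38 and 1.90, each above the ASK1-deficient one. limma called all 36 complex I genes, all genes of complexes II to IV and 13 of the 16 ATP synthase genes higher in iBAT, and 2 of the 16 higher in eWAT, against 30.8% and 24.6% of all genes tested. The ATP synthase genes with log2 ratios below 0 were Atpif1, the inhibitor of the enzyme (16.7 in iBAT and 29.6 in eWAT, log2 ratio -0.83), and the c subunit genes Atp5g1 (-0.39) and Atp5g3 (-0.43), whereas the third c subunit gene, Atp5g2, had 1.06. Cox6a2, a muscle-type subunit of complex IV, had the widest ratio of the chain, 30.6 against 0.113 (8.09). Complex IV without muscle-shared genes had a median of 1.91 over 11 genes. As a reference, none of the 33 cytosolic ribosomal protein genes differed 2-fold (median 0.11).

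Nuclear respiratory factor 1 and the cAMP response element are textbook routes to mitochondrial and brown fat genes, so the promoters of members that were higher in iBAT were read for their letters. The following stretches, from 7 genes chosen after the matches were seen, end at the base before the RefSeq start (GRCm38.p6), written 5′ to 3′ on the strand of the gene. Capitals mark the NRF1 core GCATGCGC, either strand, or the full cAMP response element TGACGTCA.
Sdhb: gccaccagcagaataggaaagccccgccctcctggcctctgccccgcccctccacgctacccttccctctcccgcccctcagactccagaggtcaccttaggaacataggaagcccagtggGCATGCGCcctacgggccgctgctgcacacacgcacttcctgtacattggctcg
Ndufa6: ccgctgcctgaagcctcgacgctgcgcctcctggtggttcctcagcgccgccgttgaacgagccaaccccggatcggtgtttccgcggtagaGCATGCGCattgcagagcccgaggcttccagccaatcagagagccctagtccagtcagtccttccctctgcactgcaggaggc
Ndufa8: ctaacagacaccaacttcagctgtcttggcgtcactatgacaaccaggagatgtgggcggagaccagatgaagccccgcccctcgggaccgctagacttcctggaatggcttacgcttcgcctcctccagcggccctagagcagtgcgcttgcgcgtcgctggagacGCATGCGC
Atp5k: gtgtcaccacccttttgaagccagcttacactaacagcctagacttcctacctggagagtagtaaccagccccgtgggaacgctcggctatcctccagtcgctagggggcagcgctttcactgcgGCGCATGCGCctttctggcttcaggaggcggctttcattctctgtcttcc
Cycs: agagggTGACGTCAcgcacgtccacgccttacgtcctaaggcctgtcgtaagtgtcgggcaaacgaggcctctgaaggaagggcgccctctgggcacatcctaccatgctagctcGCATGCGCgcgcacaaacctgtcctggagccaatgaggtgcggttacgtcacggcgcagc
Ndufa11: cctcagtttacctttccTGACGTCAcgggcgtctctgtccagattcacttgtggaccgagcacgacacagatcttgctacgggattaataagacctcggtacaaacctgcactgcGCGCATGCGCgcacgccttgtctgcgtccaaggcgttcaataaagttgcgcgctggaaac
Dio2: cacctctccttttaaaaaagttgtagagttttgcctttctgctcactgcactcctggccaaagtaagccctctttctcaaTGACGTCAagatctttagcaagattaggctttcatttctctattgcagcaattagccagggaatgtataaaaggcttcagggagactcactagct
Sdhb, an iron-sulfur subunit of complex II, lies on chr4:140961096-140961270, and its gene read 297 in iBAT and 50.7 in eWAT without ASK1 (log2 ratio 2.55). Ndufa6 (chr15:82354292-82354466, log2 ratio 2.05), Ndufa8 (chr2:36049339-36049513, 1.92) and Ndufa11 (chr17:56717587-56717761, 1.55) encode subunits of complex I. Atp5k (chr5:108434400-108434574, 1.82) encodes a subunit of ATP synthase and Cycs (chr6:50566570-50566744, 1.75) cytochrome c, which carries electrons to complex IV. In Dio2 (chr12:90739039-90739213) the cAMP response element starts at position -95, and in Cycs and Ndufa11 it stands with an NRF1 core further downstream. In Atp5k and Ndufa11 the core and its reverse complement overlap in a run of 10 letters.

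Over the whole window of 250 bases before to 50 after the start, the NRF1 core was found in 11 of 66 promoters of the respiratory lists (16.7%). It was found in 3.05% of all 27025 genes with a promoter and in 5.36% of the genes measured. Among genes at least 4-fold apart it stood in 10 of 356 promoters higher in iBAT (2.81%) and in 11 of 428 higher in eWAT (2.57%). The cAMP response element was in 7.58% of the respiratory promoters, 3.32% of measured, 1.97% of the iBAT and 1.17% of the eWAT promoters. The oestrogen-related receptor element TCAAGGTCA, also searched on both strands, was in 2 of the 66, in 2 of the 356 and in none of the 428, against 0.325% of measured genes and 0.466% of all genes with a promoter. For genes at least 2-fold higher in iBAT the share was 5.15% for the NRF1 core and 3.03% for the cAMP response element, near those over measured genes, and for genes at least 2-fold higher in eWAT it was 2.95% and 1.37%. For each motif the highest share belonged to the respiratory lists, 3.03% for the oestrogen-related receptor element. The 2 respiratory promoters with that element were those of Sdhd (log2 ratio 2.19) and Atp5g3 (-0.43). A match describes letters and not a bound site.

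Genes of fuel oxidation were mostly higher in iBAT. Of 18 genes of the TCA cycle, 17 were at least 2-fold higher in ASK1-deficient iBAT, against 12.3% of all measured genes (median 2.18), led by Sucla2, a subunit of succinyl-CoA ligase, at 402 and 31.3 (log2 ratio 3.68). Of 24 fatty acid oxidation genes 19 were higher and 1 lower, against 12.3% and 12.6% (median 2.08, or 1.89 without muscle-shared genes). Acaa2, the thiolase that ends the mitochondrial spiral, read 909 and 70.9 (3.68), and Acadl, a long-chain dehydrogenase, had 3.36. The lower one was Cpt1a, the form of carnitine palmitoyltransferase 1 that predominates in liver, at 0.431 in iBAT and 2.09 in eWAT (-2.28, limma adjusted p = 7.66e-05). Its ratio stood opposite to that of the muscle-type form Cpt1b. Of 25 genes of glycolysis and pyruvate handling, 19 were higher in iBAT (median 1.29). Pdk4, the kinase that shuts pyruvate out of the TCA cycle, led them at 186 and 4.06 (5.52).

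**Figure D3:**
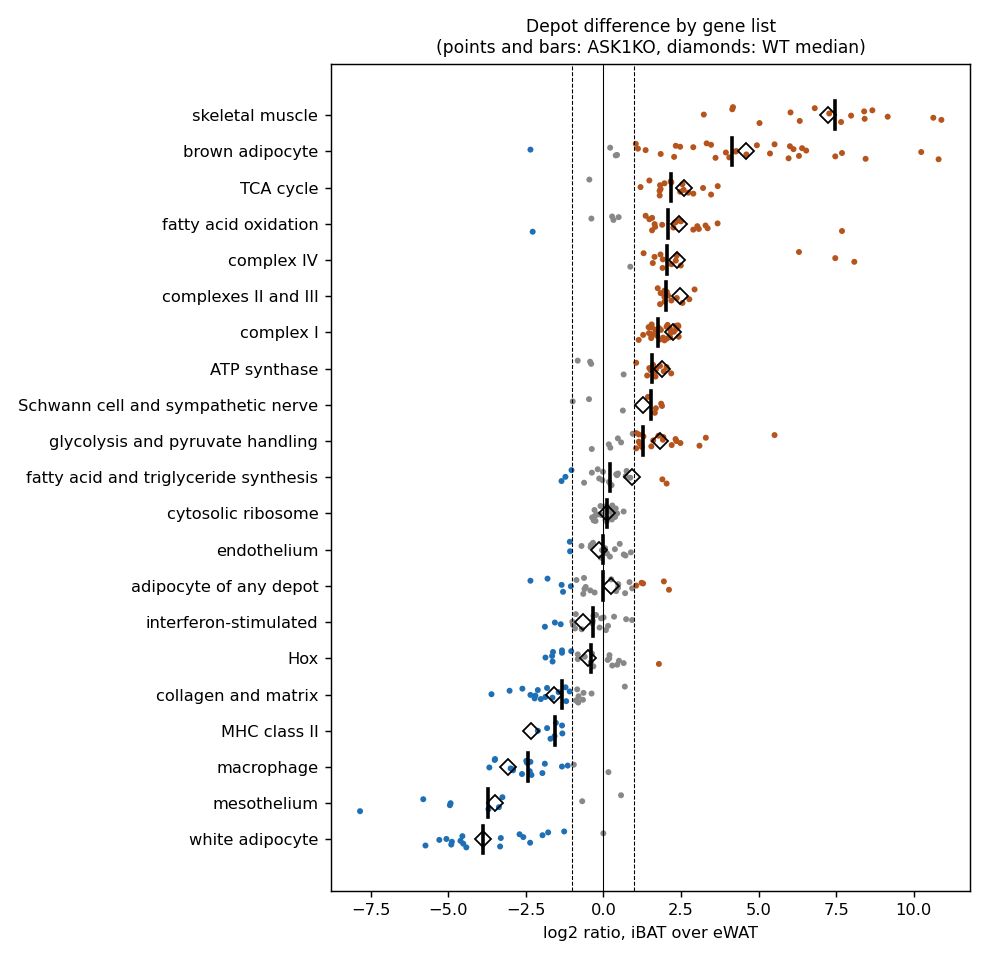
Log2 ratio of iBAT over eWAT (x axis) of the measured members of 21 gene lists (y axis). Points are single genes in ASK1-deficient mice, coloured when at least 2-fold apart, black bars their medians and diamonds the medians of the members measured in WT. The medians of muscle, brown adipocyte and mitochondrial lists lie to the right of the dashed 2-fold line and those of macrophage, mesothelium and white adipocyte lists to the left, and the WT median of fatty acid and triglyceride synthesis lies right of the ASK1-deficient one.

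Lipid synthesis was the metabolic list whose depot pattern looked least alike in the genotypes. Of 20 genes, 2 were at least 2-fold higher in ASK1-deficient iBAT and 3 lower (median 0.21), shares near the 12.3% and 12.6% of all measured genes, where WT had 9 higher and none lower (median 0.92). Without scaling of the arrays, where the median of all genes was -0.75, the median of this list was -0.57. Fasn, fatty acid synthase, read 20.9 in iBAT and 32.2 in eWAT without ASK1 (log2 ratio -0.62) but 60.6 and 21.2 in WT (1.52), so the brighter depot was not the same. Acly, which supplies cytosolic acetyl-CoA, read 15.4 and 12.9 (0.26) against 28.4 and 9.23 in WT (1.62). Acaca, acetyl-CoA carboxylase 1, had 0.23 against 1.28, and Agpat2, an acyltransferase of triglyceride synthesis, 0.47 against 1.59. In each of these 4 genes the iBAT signal was lower without ASK1 and the depot ratio smaller. The genes that kept a 2-fold excess in ASK1-deficient iBAT were Elovl6, an elongase (33.3 and 8.91, log2 ratio 1.90, WT 3.43), and Acacb, the carboxylase form at the mitochondrial surface (2.04, WT 2.62). Over both genotypes limma called 10 of the 20 higher in iBAT and 3 in eWAT, against 30.8% and 24.6% of all genes tested, with an adjusted p of 0.432 for Fasn, and the difference between genotypes was not tested.

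Of 10 measured genes of creatine and calcium cycling, 6 were at least 2-fold higher in ASK1-deficient iBAT and 1 lower, against 12.3% and 12.6% of all measured genes, with 3 more above background in iBAT only. Ckmt2 and Ckm, mitochondrial and cytosolic creatine kinases of muscle, were above background in ASK1-deficient iBAT only (at least 413-fold and 652-fold), and Atp2a1, the calcium pump of fast muscle, read 15.3 and 0.0988 (log2 ratio 7.28). Ckmt1, the mitochondrial creatine kinase of non-muscle tissues, read 19.4 and 6.16 (1.65). Gamt, which makes creatine, went the other way at 4.37 and 12.8 (-1.54). Without muscle-shared genes the list had 8 measured members and a median of 1.19.

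Of 21 measured genes of adrenergic and cAMP signalling, 9 were at least 2-fold higher in ASK1-deficient iBAT and 3 higher in eWAT, against 12.3% and 12.6% of all measured genes (median 0.61, or -0.16 without scaling of the arrays). Receptors divided by type. Adra1a, the α1A receptor, read 1.21 and 0.0865 (log2 ratio 3.81) and Adrb1 0.988 and 0.383 (1.37), while Adrb3 was higher in eWAT. Adra2a, a receptor that lowers cAMP, was above background in eWAT only (at least 8.68-fold). Below the receptors, Gnas, the stimulatory G protein, read 17.1 and 2.58 (2.73) and Adcy3, an adenylyl cyclase, 1.87 and 0.383 (2.29). Adcy5, another cyclase, and Gnai1, an inhibitory G protein, were higher in eWAT at -3.11 and -2.90. The phosphodiesterase Pde4d was higher in iBAT (3.58). Th, tyrosine hydroxylase of sympathetic nerves, read 2.81 and 1.04 (1.44). Of 12 genes on the nerve and Schwann cell list, 8 were measured in both depots (median 1.55). At least a 2-fold excess in iBAT was seen for 5 and in eWAT for none, against 12.3% and 12.6%, while Cnp (-0.46) and Pmp22 (-0.99) lay below 0. Dbh, Npy and Slc6a2, the other sympathetic genes listed, were not measured in both depots.

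In the pathway of ASK1 itself few genes differed 2-fold. Of 24 measured genes of the ASK1, JNK and p38 list, 3 were at least 2-fold higher in ASK1-deficient iBAT and none in eWAT (median 0.23, or -0.55 without scaling of the arrays), a share near that of all measured genes (12.3%). limma called 12 of the 24 higher in iBAT and none in eWAT, against 30.8% and 24.6% of all genes tested. Those 3 were Dusp10, a phosphatase of p38 and JNK (1.80 and 0.609, log2 ratio 1.56), Map2k6, a kinase upstream of p38 (1.21), and Map3k15, the ASK3 gene (1.17). Map3k6, the ASK2 gene, read 14.2 and 15.5 (-0.13) and Mapk14, the p38α gene, 2.12 and 2.39 (-0.17). In WT mice 8 of the 24 were at least 2-fold higher in iBAT, against 16.4% of all measured genes there.

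Positional genes had a median of -0.40 both for Hox genes and for other positional factors (0.20 and 0.60 without the filter on dim probes). Of 39 Hox genes, 21 were measured in both ASK1-deficient depots, and 7 of them were at least 2-fold higher in eWAT and 1 in iBAT (12.6% and 12.3% over all measured genes), with 4 more above background in eWAT only. limma called 10 of 20 Hox genes higher in eWAT and 2 in iBAT, against 24.6% and 30.8% of all genes tested. Hoxa7 read 4.37 in iBAT and 13.6 in eWAT (log2 ratio -1.64) and Hoxb5 0.293 and 1.07 (-1.87). Hoxa4, an anterior gene, was the one higher in iBAT, at 0.495 and 0.143 (1.79). Other factors laid down in the embryo were seen in a single depot. Tbx15 and Tbx5, T-box factors of the trunk and forelimb field, were above background in iBAT only, at relative signals of 0.659 (at least 20.2-fold) and 1.77. Wt1, a factor of the mesothelium and visceral mesoderm, was above background in eWAT only, at 5.46 (at least 117-fold). Of 12 other positional factors measured in both depots, 5 were at least 2-fold higher in eWAT and 1 in iBAT, against 12.6% and 12.3%. Gata6 (-3.22), Osr1 (-3.47) and Foxc2 (-2.64) were among those higher in eWAT, and Tbx3 (1.42) was the one higher in iBAT. In all, 7 of the 30 other positional factors were above background in iBAT only and 4 in eWAT only. Over all 22066 genes on the array the counts were 489 and 1058, which also stand beside the 4 Hox genes. The WT ratio of Gata6 was -3.31 and that of Osr1 -4.68.

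**Figure D4:**
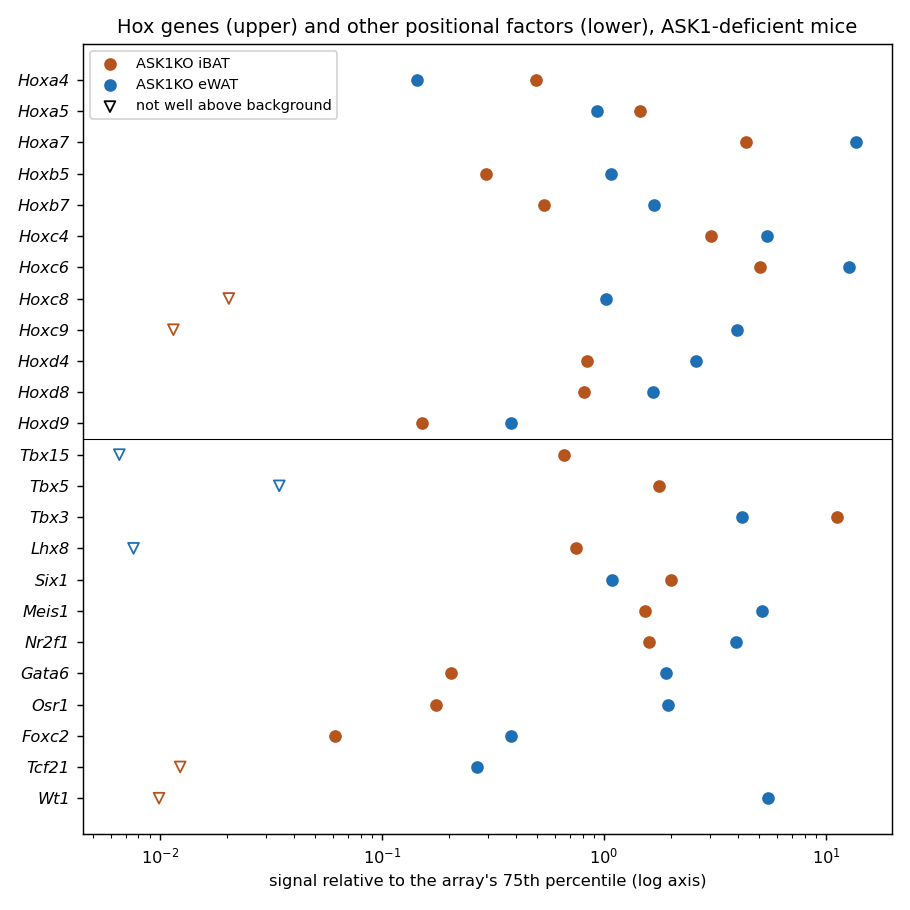
Relative signal (log axis) of Hox genes (upper) and other positional factors (lower) in ASK1-deficient iBAT and eWAT, 1 array each. Open triangles are signals not well above background. Tbx15, Tbx5 and Lhx8 have open triangles in eWAT, and Hoxc8, Hoxc9, Tcf21 and Wt1 in iBAT.

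Besides the white adipocyte genes, genes of the mesothelial surface and of macrophages were higher in eWAT. Slpi, a secreted protease inhibitor, had the widest ratio, 0.108 in iBAT and 46.9 in eWAT (log2 ratio -8.76, WT -8.87). Msln, mesothelin, read 0.0557 and 12.8 (-7.84). Of 18 mesothelium genes, 9 were measured, 7 of them at least 2-fold higher in eWAT against 12.6% of all measured genes, and the other 9 were among the 1058 genes above background in eWAT only, with Upk3b at least 89.1-fold, Muc16 at least 80.7-fold and Krt19 at least 66.6-fold higher. Nkain4, not on the list, was also above background in eWAT only (at least 76.7-fold). Their summed relative signal was 10.9 in iBAT and 101 in eWAT. Genes of the epididymis itself were scarce, as 15 of the 17 listed were not well above background in either depot. Leaving out white adipocyte genes, those next in the order were Sult1e1, the oestrogen sulfotransferase (0.176 and 21.2, -6.92), D430019H16Rik (-6.57), Rspo1, a Wnt signalling enhancer (-5.80), Fcna, a macrophage lectin (-5.46), C6, a complement protein (-5.36), Penk, proenkephalin (-5.34), and Serpina3n, a protease inhibitor (-5.09).

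Of 18 macrophage genes, 16 were at least 2-fold higher in ASK1-deficient eWAT, against 12.6% of all measured genes (median -2.42), with summed relative signals of 28.3 in iBAT and 184 in eWAT. Mrc1, the mannose receptor of resident macrophages, read 1.55 and 11.7 (log2 ratio -2.91), and Adgre1, the F4/80 gene, 0.723 and 3.60 (-2.32). All 7 genes of MHC class II were at least 2-fold higher in eWAT (median -1.57), among them H2-Ab1 at 34.4 and 102 (-1.57). Over the members measured on all 4 arrays the medians were -2.35 without ASK1 and -3.08 in WT for 17 macrophage genes, and -1.64 and -2.32 for 6 genes of MHC class II. Of 24 collagen and matrix genes, 15 were higher in eWAT (median -1.33), with Fn1, fibronectin, at 6.88 and 83.6 (-3.60). Of 16 endothelial genes, 2 were higher in eWAT, a share near that of all measured genes, and the median was 0.00.

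The depot differences of ASK1-deficient mice were set beside those of WT mice, which share no array with them, over the 14057 genes measured on all 4 arrays. Of 3486 genes at least 2-fold apart without ASK1, 86.2% were also at least 2-fold apart in the same direction in WT, 1532 higher in iBAT and 1473 in eWAT. The reverse share was 72.6% of 4140 genes. Of the 453 genes at least 4-fold higher in ASK1-deficient iBAT, 439 were at least 2-fold higher in WT iBAT, and of the 546 at least 4-fold higher in eWAT, 542 were. Across genes the log2 ratios of the genotypes had a Pearson correlation of 0.93 and a slope of 0.85, ASK1-deficient on WT. Genes are not independent replicates, so this is a description. A 2-fold difference was seen without ASK1 but not in WT for 221 genes higher in iBAT and 242 in eWAT, and 346 of these 463 exceeded 1.5-fold in the same direction in WT. In WT alone, 711 genes were 2-fold higher in iBAT and 406 in eWAT. Most genes that passed 2-fold only without ASK1 thus lay near that threshold in WT.

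**Figure D5:**
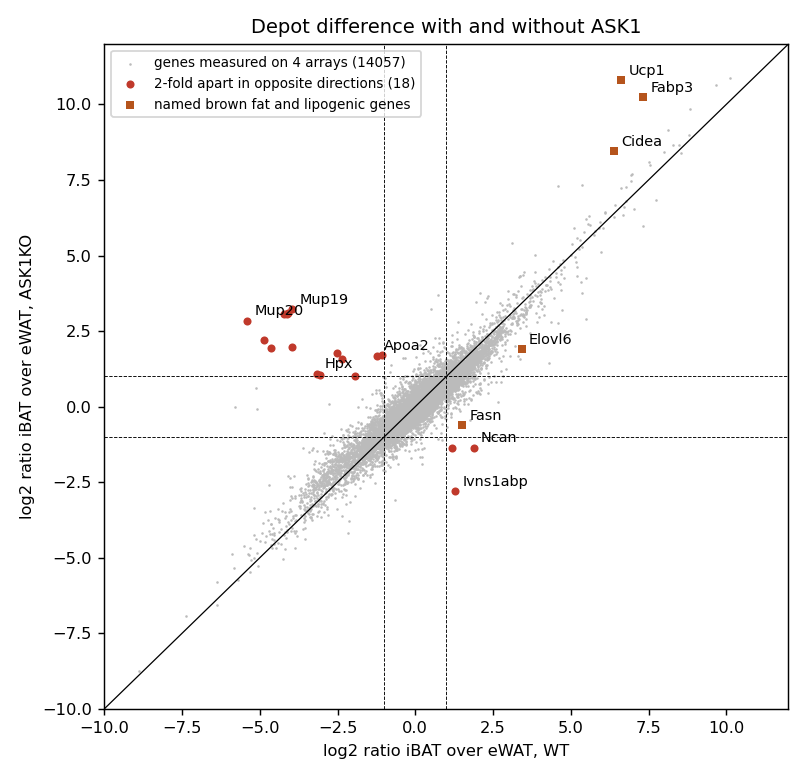
Depot difference (log2 ratio of iBAT over eWAT) of 14057 genes in WT (x axis) and ASK1-deficient mice (y axis), with the line of equality and dashed 2-fold lines. Most genes lie near the line. Red points are the 18 genes at least 2-fold apart in opposite directions, 15 of them at the upper left, where Mup genes lead.

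The genes that departed furthest from this common pattern were of hepatic type. Of 24 hepatocyte genes, 15 were measured in the ASK1-deficient depots, 7 at least 2-fold higher in iBAT and 2 higher in eWAT, against 12.3% and 12.6% of all measured genes. Their median was 0.78, or 0.01 without scaling of the arrays and 1.22 without the filter on dim probes. Another 4 were above background in iBAT only. In WT 9 of 12 measured genes were higher in eWAT, against 13.4% (median -3.10), and the other 12 were above background in eWAT only. Alb, albumin, read 0.311 in iBAT and 0.250 in eWAT without ASK1 (log2 ratio 0.31), and in WT it was above background in eWAT only, at 4.80, at least 86.8-fold higher than in iBAT. Cyp2e1, which adipose tissue also expresses, did not share this, at 29.9 and 295 without ASK1 (-3.30) and 33.9 and 296 in WT (-3.12), and it dominated the summed relative signal of the list (68.6 in iBAT and 524 in eWAT without ASK1). Among the major urinary proteins, lipocalins made chiefly by the liver, Mup19 read 7.71 and 0.830 without ASK1 (3.21) and 3.28 and 50.7 in WT (-3.95). Mup genes are near-identical copies, so their probes may read each other's RNA and single members are uncertain. In the other direction, Slc2a5, the fructose transporter, read 2.29 and 0.308 without ASK1 (2.89) and 6.93 and 0.153 in WT (5.50), and Atp4b, a proton pump subunit, had 1.43 against 4.29. Both stayed higher in iBAT. Vil1, an actin-bundling protein of brush borders, had 0.15 against 2.65, Ttc25 -0.46 against 1.76 and Prrt2 -3.09 against -0.66. A second Ttc25 probe was above background in ASK1-deficient iBAT only, at least 3.47-fold higher there, the opposite direction. No difference between genotypes was tested, and the part of liver-type RNA in WT eWAT in these differences was not tested.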

How the data were processed

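RNA of iBAT and eWAT from WT and ASK1-deficient mice was hybridised to 4 one-colour Agilent arrays, 1 for each condition. The authors deposited the scanner output of each array, made with Agilent Feature Extraction 10.7.3.1, in which processed signals are linear intensities with a spatial background removed. Dim spots carry surrogate values there, so small differences between dim probes are uncertain. They also deposited a series table whose signal, set against the scanner values, proved to be the processed signal of an array over its median.

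Control spots and outlier spots were left out, and spots of one probe were averaged as log2 values. Each array was then centred on its 75th percentile, which was 371 in ASK1-deficient iBAT and 634 in ASK1-deficient eWAT, and 54.8% and 58.3% of probes were well above background there (WT 356 and 673). A gene value was the mean over probes well above background on both arrays compared. Where a gene was above background in 1 depot only, its level was divided by the higher of the dim probe and the dimmest probe well above background on the other array, which gives the "at least" values. Of 34844 gene names, 22147 matched RefSeq, giving 22066 genes. Probe positions are those of the files (mm9). Gene lists were counted against a 2-fold threshold. No test was possible within a genotype with 1 array a depot. Depot and genotype were fitted with limma 3.58.1 (R 4.3.3) with Benjamini-Hochberg adjustment. Tested on simulated data over 14057 genes, that fit recovered 200 of 200 genes changed 4-fold, with 7 false calls. The simulated noise was that of repeated spots only, without variation between pools. The rate of false calls in the real data therefore cannot be read from it. Technical spread over repeated spots of a probe had a median SD of 0.0691 (log2, 279 probes). The text names the 12 widest ratios and 6 largest bounds each way, the 8 largest genotype differences each way, Map3k5, genes opposite in the genotypes, and list members. The members, lists and named promoters were chosen with earlier results of these data known. Alternatives changed the background correction, scaling, source table, filter, probe choice, gene names and thresholds. The number of arrays limits the precision. Lists of male germ cell, erythrocyte, lymphocyte and interferon-stimulated genes had medians of 0.36, 0.24, -0.14 (0.16 with normexp) and -0.33. Results for a few genes are not reported here.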

Additional observations from a re-analysis of the deposited data

Results flagged for a closer look

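The depot difference ran in opposite directions in the genotypes, by at least 2-fold each way, for 18 of 14057 genes. Values here are the log2 depot difference without ASK1 minus that in WT, and with 1 array in each condition no difference was tested. For 15 genes the ASK1-deficient mice were higher in iBAT and the WT mice in eWAT. They include 8 major urinary protein genes, Mup20 (8.24), Mup17 (7.27), Mup9 (7.19), Mup4 (7.18), Mup19 (7.17), Mup3 (7.07), Mup5 (6.59) and Mup2 (5.93), whose probes read near-identical copies. The others were Cyp2d26 (4.29), a cytochrome P450, Hpx (4.25), which binds haem in plasma, Serpinc1 (4.11), antithrombin, Gm7298 (3.95), Fbp1 (2.97), a gluconeogenic enzyme, Apoa2 (2.92), an apolipoprotein, and Azgp1 (2.75), a secreted glycoprotein. Before scaling, the processed signals in ASK1-deficient iBAT and eWAT were 40.3 and 32.3 for Hpx, 61.8 and 51.3 for Serpinc1 and 62.0 and 51.9 for Fbp1. For these genes and for Gm7298, Apoa2 and Azgp1 they lay less than 2-fold apart, so the 2-fold excess in iBAT depends on the scaling. Most of the 15 are genes of hepatocytes. The hepatocyte list as a whole had, over 12 genes measured on all 4 arrays, a median of 0.91 without ASK1 and -3.10 in WT.

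For 3 genes the order was the reverse, Adcy10 (-2.54), a soluble adenylyl cyclase, Ncan (-3.24), a matrix proteoglycan of the brain, and Ivns1abp (-4.07), an actin-binding protein. The 2 probes of Ivns1abp disagreed, with log2 depot differences of -7.83 and 2.23 without ASK1, and its gene value is their mean.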

How the results depend on the processing

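Without scaling of the arrays, the ASK1-deficient count rose from 3622 to 5794 genes at least 2-fold apart, 621 higher in iBAT and 5173 in eWAT, with a median of all genes of -0.75. WT then had 724 and 5635, and limma called 1283 and 9581. Without the filter on dim probes the ASK1-deficient count was 5523 (2902 higher in iBAT) and the WT count 9241 (6268 and 2973). At 1.5-fold the counts were 6450 (3368 and 3082) and in WT 7115 (4071 and 3044), and at 4-fold 1053 (458 and 595) and 1430 (653 and 777). With a signal of at least 100 on both arrays 1200 WT genes were higher in eWAT. limma called 3684 genes that were also at least 2-fold apart (1928 and 1756). The NRF1 core was in 5.15% of promoters of genes at least 2-fold higher in iBAT, against 2.81% at 4-fold.

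Under the other alternatives the ASK1-deficient count ran from 2573 to 4806. Of 31 gene lists, 16 had a median at least 2-fold from 0, and 15 to 17 did under the alternatives, though not always the same lists. Without scaling, ATP synthase (0.79), glycolysis (0.52), creatine and calcium cycling (0.73) and the nerve list (0.78) fell below 2-fold. The Hox (-1.18), other positional (-1.17) and interferon-stimulated (-1.10) lists then passed it. The medians of the Hox list and of the other positional factors, both -0.40, were 0.20 and 0.60 without the filter on dim probes. For 48 named genes and 12 alternatives, none of 549 values reversed a main ratio of at least 2-fold. Another 14 moved across the 2-fold line or, where the main ratio was smaller, changed direction. After the data were seen, 5 lists were recomputed without muscle-shared genes, as given beside them. None of the genes left out was on the glycolysis list, so its median of 1.29 could not change. The alternative with a signal of at least 100 gave no value for the male germ cell list. No paired analysis was possible because the labels carry no replicate numbers and each condition has 1 array. The limma fit holds genotype as a term, and without it 7848 genes were called in place of 7799. No array could be left out within a genotype. The precision of each ratio is limited by 1 pool for each condition, and dim probes are limited by their signal over background.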
